A study of Saccharomyces cerevisiae with 6 samples.

Results

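SAGA and NuA4 are the large yeast complexes that acetylate histones at promoters, and Tra1 is the one very large protein that they share. The genes described here encode their other subunits: 31 genes, 19 for SAGA and its associated remodeller Chd1 and 12 for NuA4. They were chosen by name from what is known of the complexes, by a rule that uses no measured value, although earlier results of these data were known when they were chosen. Of these 31 members, 30 had a spot among the 6256 genes of the array. SUS1 had none and is not analysed here. A further member, EPL1, lacked a usable value on 1 array, so 29 members were among the 6119 genes tested.

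Each of 6 Agilent dual-colour arrays compared mRNA of a Saccharomyces cerevisiae strain that carried a mutant tra1 allele with mRNA of a strain that carried TRA1. The mutant groups were tra1-P3408A (strain CY1507), tra1_SRR3413 (strain CY1531) and tra1-S3463A (strain CY1514), with 2 arrays each, and the TRA1 strain was CY1524, whose plasmid the labels call TRA1_SB. All 4 strains, CY1524 included, had the chromosomal TRA1 gene disrupted (TRA1::Tn10LUK) and lived on a myc-tagged gene carried by the centromeric plasmid YCplac111. Each allele was represented by 1 strain, the arrays are called biological replicates in the series text, and the growth conditions are not given in the sources used here. The mutant was labelled with Cy5 on array 1 and with Cy3 on array 2 of each allele. Some labels conflict: the title gives array 1 as tra1-S3463A while its source gives the strain as that of tra1_SRR3413, and the title was followed. On array 2 of tra1_SRR3413 and of tra1-S3463A the dye written in 1 channel's source differs from the channel's label, which was followed.

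Tra1 belongs by sequence to the family of PI3K-related kinases but has no kinase activity of its own. It is the surface through which transcriptional activators bring SAGA and NuA4 to promoters. SAGA acetylates histone H3 through Gcn5, removes ubiquitin from histone H2B through Ubp8, and delivers the TATA-binding protein through Spt3 and Spt8. NuA4 acetylates histone H4 and H2A.Z through Esa1, the essential acetyltransferase of budding yeast. The comparison asks whether cells with an altered PI3K domain of Tra1 also changed the mRNA of the proteins that work with it.

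The values are log2 (mutant / TRA1 strain) of each array, and means ± SD are over the 2 arrays of an allele (n = 2 throughout). A gene passed where the Benjamini-Hochberg adjusted p of limma, over 6119 genes, was below 0.05. The 276 readings of member spots were all well above background in both channels, and 7 of them were left out as outlier spots. TRA1 itself, carried on the plasmid in every strain, stood between 0.73 and 1.93 on the 6 arrays and passed in tra1_SRR3413 and tra1-S3463A (adjusted p = 0.0260 and 0.0496) but not in tra1-P3408A (0.0887). It is no check of the labels, since no allele removes the gene. The arrays lay on 3 slides, and array 2 of tra1_SRR3413 and array 2 of tra1-S3463A shared slide 3. Since arrays of 1 number, which is the dye orientation, deviated from the allele means together, a second fit took the array number as a block. What the alleles have in common, including any deviation of the TRA1 strain, then leaves the error, and the p-values of this fit may be too small.

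Few subunit genes passed in the fit without a block. EAF6, a small NuA4 subunit, fell in all 3 alleles, by 0.45 ± 0.01 in tra1-P3408A, by 0.54 ± 0.01 in tra1_SRR3413 and, in tra1-S3463A, by 0.53 ± 0.05. TAF12, a subunit that SAGA shares with the general factor TFIID, rose by 0.77 ± 0.33 in tra1_SRR3413, and CHD1, a chromatin remodeller, rose there by 0.50 ± 0.23. No other member passed in any allele. In such bulk RNA, fewer cells that hold a transcript and less of it per cell cannot be told apart. In tra1-P3408A 1 of 29 members passed (3.45%), against 12.7% of all genes tested. By direction, 0 were higher and 1 lower, against 4.76% and 7.93% of all genes. In tra1_SRR3413 3 of 29 passed (10.3%), against 21.1% of all genes, with 2 higher and 1 lower, against 9.33% and 11.7%. In tra1-S3463A 1 of 29 passed (3.45%), against 15.1% of all genes, with 0 higher and 1 lower, against 6.37% and 8.69%. In this fit without a block the members' shares were at or below the background in each allele, and the difference of the shares was not tested. An unadjusted p of limma below 0.05 was found for 4, 8 and 6 of the 29 members (13.8%, 27.6% and 20.7%), against 28.8%, 36.7% and 32.6% of all genes.

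With the array number as a block 4 of 29 members passed in tra1-P3408A, 11 in tra1_SRR3413, and 8 in the S3463A allele (13.8%, 37.9% and 27.6%). The background of that fit was 36.2%, 49.2% and 43.1% of all genes. Higher members numbered 3, 9 and 7 of 29, against 16.9%, 24.1% and 21.2% of all genes. Lower members numbered 1, 2 and 1 of 29, against 19.3%, 25.1% and 21.9%. In this fit the share of higher members was above the background in tra1_SRR3413 and, by little, in tra1-S3463A, and below it in tra1-P3408A. That of lower members was below it in each allele. These differences of shares were not tested. When the block was the slide, 7, 12 and 8 members passed, where 43.8%, 51.1% and 48.7% of all genes did. Of these members 6, 11 and 6 were higher and 1, 1 and 2 lower. Among all 6119 genes 1301, 1528 and 1502 were higher and 1378, 1598 and 1481 lower. The share of higher members was there above the background in tra1_SRR3413 alone, and this was not tested either. The slide fit left 1 residual degree of freedom, against 3 without a block and 2 with the array number. Its p-values may be too small as well, here and where single genes are given. The 2 blocks did not call the same members throughout, and the differences stand with each gene. The median size of a member's mean was 0.12, 0.24 and 0.17 for the alleles in the same order, against 0.21, 0.27 and 0.24 over all genes. By sign, 17, 22 and 19 of the 29 means lay above 0 (58.6%, 75.9% and 65.5%), against 48.6%, 49.4% and 50.1% of all genes. This difference was not tested. The members' medians were 0.08, 0.18 and 0.10, while the medians of all genes were -0.01, -0.01 and 0.0016. The 95% interval of a member's mean reached 0.30 to either side at the median, in the fit without a block and before adjustment over genes.

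**Figure D1:**
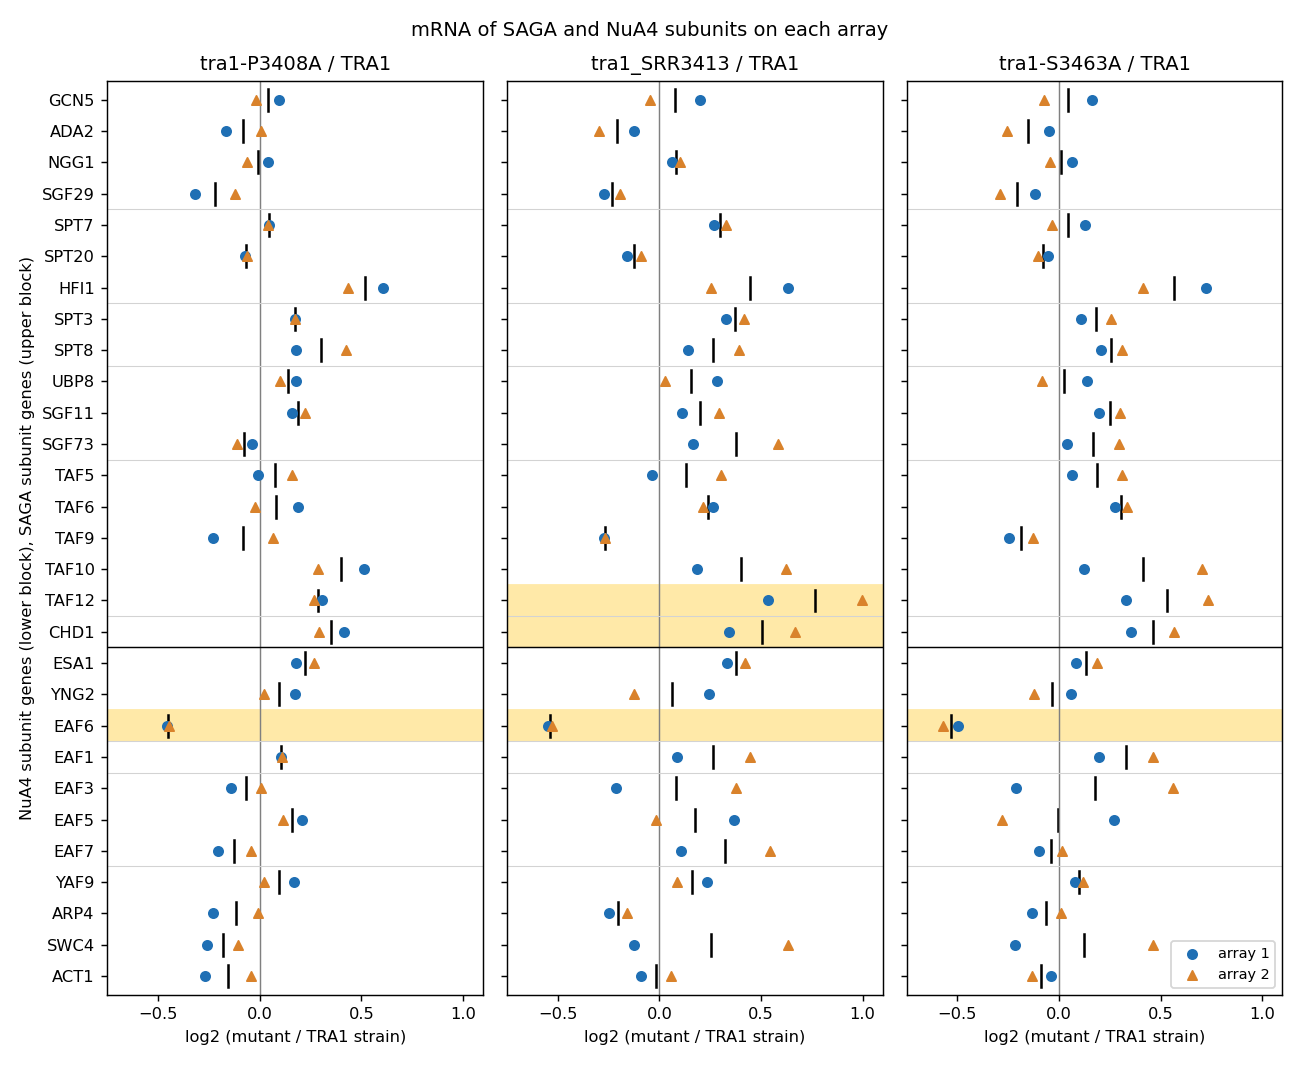
Each row is a subunit gene and each panel an allele; the x axis is log2 (mutant / TRA1 strain), circles are array 1, triangles array 2, and black bars their mean (n = 2). Yellow rows mark genes with an adjusted p of limma below 0.05: EAF6 in all 3 panels, TAF12 and CHD1 in tra1_SRR3413, while most other genes lie near 0 or differ between arrays.

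The 4 genes of the acetyltransferase module of SAGA had means between -0.23 and 0.08, and none passed. It holds Gcn5, the catalytic subunit, Ada2 and Ngg1 (Ada3), which stimulate Gcn5, and Sgf29, which binds methylated histone H3. GCN5 stood at 0.10 and -0.02 on arrays 1 and 2 of tra1-P3408A, 0.20 and -0.05 in tra1_SRR3413, and 0.16 and -0.07 in tra1-S3463A. It was above 0 on each array 1 and below 0 on each array 2, so its sign followed the dye orientation. The 95% intervals of its 3 means lay between -0.26 and 0.37. NGG1 means were between -0.01 and 0.08, and ADA2 means between -0.21 and -0.08. SGF29 was below 0 on every array, from -0.32 to -0.12, and passed in no allele without the block or with it (adjusted p of limma 0.0740 to 0.112 with it). With the slide as a block it passed in tra1-S3463A (-0.25, adjusted p = 0.0398).

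Among the core subunits, which hold SAGA together, HFI1 (Ada1) had the largest shift. HFI1 stood at 0.60 and 0.43 on arrays 1 and 2 of tra1-P3408A, 0.64 and 0.25 in tra1_SRR3413, and 0.72 and 0.41 in tra1-S3463A. All 6 values were above 0, and array 1 was the higher one in each allele. The means were 0.52 ± 0.12 (1.43-fold), 0.44 ± 0.27 (1.36-fold) and 0.57 ± 0.22 (1.48-fold). None passed, with adjusted p of limma of 0.0689, 0.0779 and 0.0504, and all 3 passed with the array number as a block (0.00535, 0.00629 and 0.00387). That of tra1-S3463A also passed without either array of tra1_SRR3413 (0.0414) and with median centring in place of loess (0.65, adjusted p = 0.0378). SPT7, which encodes the scaffold of the core, stood at 0.27 and 0.33 in tra1_SRR3413, where it passed with the block (adjusted p of limma 0.0944 without it and 0.0231 with it), and had means of 0.04 and 0.05 in tra1-P3408A and tra1-S3463A. SPT20, needed for the integrity of SAGA, was slightly below 0 on every array, from -0.16 to -0.06, and did not pass in either fit.

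The 2 subunits that contact the TATA-binding protein, Spt3 and Spt8, had positive values on every array. SPT3 stood at 0.18 and 0.17 on arrays 1 and 2 of tra1-P3408A, at 0.33 and 0.42 in tra1_SRR3413 and at 0.11 and 0.25 in tra1-S3463A. Its mean in tra1_SRR3413, 0.37 ± 0.06, did not pass (adjusted p of limma 0.0534) and passed with the block (0.00933). It passed without a block too with median centring in place of loess (0.48, adjusted p of limma 0.0434). The same held with processed signals (0.0499) and with the deposited series table (0.0497). SPT8 stood at 0.18 and 0.43, at 0.14 and 0.39, and at 0.21 and 0.31 for tra1-P3408A, tra1_SRR3413 and tra1-S3463A. Array 2 was the higher one in each allele, the opposite of HFI1. SPT8 passed in no allele without the block and in all 3 with it (adjusted p of limma 0.0243, 0.0287 and 0.0362). With the slide as a block the call in tra1-S3463A was lost (0.17, adjusted p = 0.117).

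In the deubiquitinase module the catalytic subunit gene UBP8 had means of 0.14, 0.16 and 0.03 for tra1-P3408A, tra1_SRR3413 and tra1-S3463A and did not pass in either fit. SGF11, which activates Ubp8, was above 0 on every array, from 0.11 to 0.30, and passed with the block in tra1-S3463A (mean 0.25 ± 0.07, adjusted p of limma 0.175 without it and 0.0362 with it) but not with the slide as a block (0.0700). SGF73, which anchors the module to SAGA, differed most between arrays. It stood at -0.04 and -0.11 in tra1-P3408A, 0.16 and 0.59 in tra1_SRR3413, and 0.04 and 0.30 in tra1-S3463A. Its mean of 0.38 ± 0.30 in tra1_SRR3413 passed with the block (adjusted p of limma 0.114 without it and 0.0291 with it).

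Of the 5 TAF proteins, which sit in both SAGA and TFIID and most of which pair through histone folds, that encoded by TAF12 had the largest shift in its mRNA. TAF12 stood at 0.54 and 1.00 on arrays 1 and 2 of tra1_SRR3413, 0.33 and 0.73 in tra1-S3463A, and 0.30 and 0.27 in tra1-P3408A. It was above 0 on all 6 arrays, and highest on the 2 arrays of slide 3. The rise in tra1_SRR3413 was 1.70-fold (adjusted p of limma 0.0225). The means in tra1-S3463A (0.53 ± 0.29, adjusted p = 0.0750) and tra1-P3408A (0.28 ± 0.03, adjusted p = 0.309) did not pass, and with the block that of tra1-S3463A did (0.0133). With the slide as a block that of tra1-P3408A passed too (0.43, adjusted p = 0.00697). The call in tra1_SRR3413 was lost without its array 2 (0.54, adjusted p = 0.199) and without either array of tra1-P3408A (0.0615). Hfi1 and Taf12 are histone-fold partners within SAGA, and their genes differed in array pattern: HFI1 was higher on array 1 of each allele, TAF12 on array 2 of tra1_SRR3413 and tra1-S3463A.

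TAF10, whose product pairs with Spt7, stood at 0.51 and 0.29 in tra1-P3408A, 0.18 and 0.62 in tra1_SRR3413, and 0.12 and 0.70 in tra1-S3463A. The 3 means were close to each other, 0.40 ± 0.16, 0.40 ± 0.31 and 0.41 ± 0.41, but the arrays were far apart. TAF10 did not pass, either without a block (adjusted p of limma 0.171 to 0.218) or with the array number as a block (0.0678 to 0.0834). With the slide as a block its estimates moved to 0.57, 0.27 and 0.38. There it passed in all 3 alleles (0.00257, 0.0315 and 0.0103), in a fit with 1 residual degree of freedom. TAF6 had means of 0.08, 0.24 and 0.30 for tra1-P3408A, tra1_SRR3413 and tra1-S3463A, and its histone-fold partner gene TAF9 had means of -0.08, -0.27 and -0.19. The means of these partners lay on opposite sides of 0 in each allele. On array 2 of tra1-P3408A the signs were the other way round, with TAF6 at -0.03 and TAF9 at 0.06. With the array number as a block TAF6 passed in tra1-S3463A and TAF9 in tra1_SRR3413 (adjusted p of limma 0.0290 and 0.0388), and without a block neither passed. With the slide as a block TAF6 passed there too (0.35, adjusted p = 0.0138) and TAF9 did not (0.0753). TAF5, which encodes a WD40-repeat subunit, had means from 0.08 to 0.19 and did not pass in either fit.

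CHD1 encodes an ATP-dependent remodeller that spaces nucleosomes and was reported with SAGA. CHD1 stood at 0.41 and 0.29 on arrays 1 and 2 of tra1-P3408A, 0.34 and 0.67 in tra1_SRR3413, and 0.36 and 0.56 in tra1-S3463A. The 6 values were all above 0 and the alleles overlapped. It rose 1.42-fold in tra1_SRR3413 (adjusted p of limma 0.0412), while the means in tra1-S3463A (0.46 ± 0.15, adjusted p = 0.0627) and tra1-P3408A (0.35 ± 0.09, adjusted p = 0.135) passed with the block (0.0155 and 0.0391) and not without it. The call in tra1_SRR3413 was lost when any single array of the 6 was left out (adjusted p 0.0549 to 0.373).

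**Figure D2:**
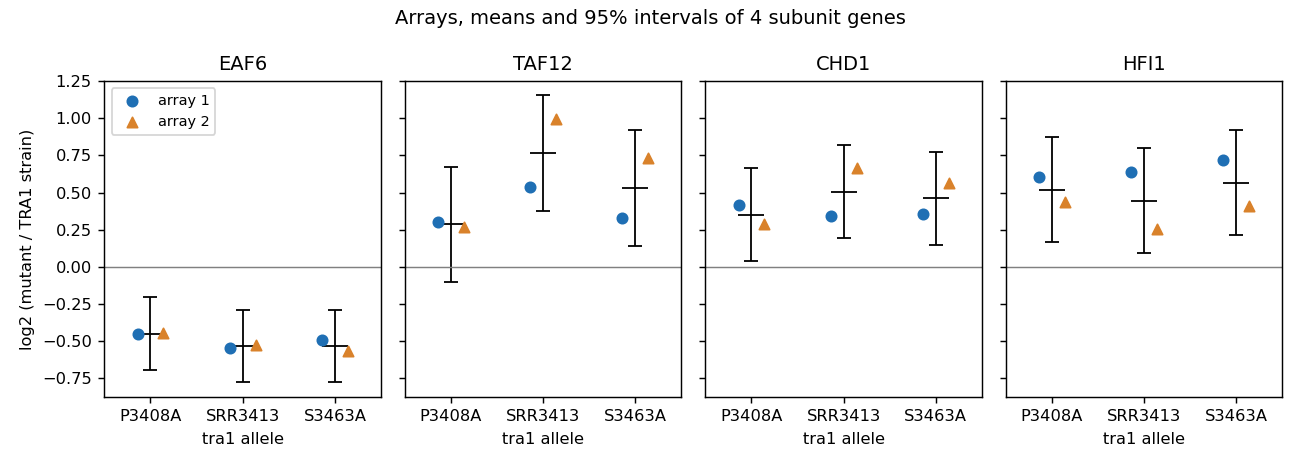
The y axis is log2 (mutant / TRA1 strain) and the x axis the tra1 allele, for the genes EAF6, TAF12, CHD1 and HFI1; circles are array 1, triangles array 2, horizontal bars the mean and whiskers limma's 95% interval (n = 2). EAF6 lies between -0.57 and -0.45 on all 6 arrays, while TAF12 and CHD1 spread more between arrays and HFI1 is higher on array 1 of each allele.

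In NuA4 the catalytic module, also called piccolo NuA4, holds Esa1, its partner Epl1, the PHD finger protein Yng2 and Eaf6. EAF6 stood at -0.46 and -0.45 on arrays 1 and 2 of tra1-P3408A, -0.55 and -0.53 in tra1_SRR3413, and -0.50 and -0.57 in tra1-S3463A. The 6 values spanned only 0.13, and neither the slide nor the dye orientation set arrays apart. The falls were 1.37-fold, 1.45-fold and 1.45-fold (adjusted p of limma 0.0383, 0.0170 and 0.0226). Eaf6 is also a subunit of NuA3, another acetyltransferase complex. The EAF6 call in tra1-P3408A was lost with processed signals (adjusted p of limma 0.0536) and with the deposited series table (0.0534). In fits of an allele's own arrays the EAF6 calls in tra1_SRR3413 (0.0820) and tra1-S3463A were lost. All 3 calls were lost with median centring in place of loess (-0.43, -0.41 and -0.43, adjusted p = 0.0805, 0.0621 and 0.0661), and that of tra1-P3408A when any 1 of the 6 arrays was left out (0.0659 to 0.322). Without array 1 or 2 of tra1-P3408A itself, 0.0163% and 0.752% of all genes passed there. That of tra1_SRR3413 was lost without its array 1 or 2 (0.104 and 0.148), and that of tra1-S3463A without its array 1 or 2 (0.133 and 0.200) and without either array of tra1-P3408A (0.0640).

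The acetyltransferase gene itself had positive values on every array. ESA1 stood at 0.33 and 0.42 in tra1_SRR3413, 0.18 and 0.26 in tra1-P3408A, and 0.08 and 0.18 in tra1-S3463A. Its mean in tra1_SRR3413, 0.38 ± 0.06, did not pass (adjusted p of limma 0.0506), and passed with the block (0.00775). It passed without a block too with median centring in place of loess (0.50, adjusted p of limma 0.0372). The same held with processed signals (0.0473), with the deposited series table (0.0471) and with saturated spots left out (0.0493). In tra1-P3408A ESA1 passed with the slide as a block (0.25, adjusted p = 0.0422), and neither without a block nor with the array number as a block. EPL1 stood at 0.56 and 0.42 in tra1_SRR3413, 0.23 and 0.36 in tra1-P3408A, and 0.05 on array 2 of tra1-S3463A, its spot on array 1 of that allele being marked as an outlier. In a fit that kept 6253 genes with values missing, added after the data were seen, EPL1 passed in tra1_SRR3413 alone (0.49, adjusted p = 0.0426). YNG2 was above 0 on each array 1, from 0.06 to 0.25, and at 0.02, -0.13 and -0.12 on array 2 of tra1-P3408A, tra1_SRR3413 and tra1-S3463A, and did not pass in either fit. Among the 4 genes of the module EAF6 alone lay below 0 on all its arrays.

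EAF1 encodes the platform on which NuA4 is assembled. It stood at 0.20 and 0.46 in tra1-S3463A, 0.09 and 0.45 in tra1_SRR3413, and 0.10 and 0.11 in tra1-P3408A, again highest on slide 3. It passed in tra1-S3463A with the block (0.33 ± 0.19, adjusted p of limma 0.152 without it and 0.0306 with it). Eaf3, Eaf5 and Eaf7 form a module of NuA4 that can also act apart from it, and Eaf3 is found in the deacetylase complex Rpd3S as well. EAF3 and EAF5 differed between the arrays of an allele. EAF3 stood at -0.21 and 0.56 in tra1-S3463A, -0.22 and 0.38 in tra1_SRR3413, and -0.14 and 0.0044 in tra1-P3408A. EAF5 ran the other way, with 0.27 and -0.28 in tra1-S3463A, 0.37 and -0.02 in tra1_SRR3413, and 0.21 and 0.11 in tra1-P3408A. Both changed sign with the array in tra1_SRR3413 and in tra1-S3463A, and neither passed with the array number as a block. EAF5 passed in tra1_SRR3413 when the block was the slide (0.25, adjusted p = 0.0480). EAF7 stood at 0.11 and 0.54 in tra1_SRR3413 and between -0.20 and 0.01 on the other arrays, and passed in tra1_SRR3413 with the block (0.32 ± 0.31, adjusted p of limma 0.149 without it and 0.0265 with it).

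The subunits that NuA4 shares with the remodellers SWR1 or INO80 passed in no allele in either fit. YAF9, which encodes a reader of acylated histones, had means of 0.09, 0.16 and 0.10 for tra1-P3408A, tra1_SRR3413 and tra1-S3463A. ARP4, the gene of an actin-related protein, had means of -0.12, -0.20 and -0.06. SWC4, also a SWR1 subunit gene, stood at 0.64 and 0.46 on the 2 arrays of slide 3 and between -0.26 and -0.11 on the other 4 arrays. For SWC4 tra1-P3408A had a mean of -0.18 ± 0.11, tra1_SRR3413 of 0.26 ± 0.54 and tra1-S3463A of 0.12 ± 0.48. ACT1, the actin gene, stood between -0.27 and 0.06. At least 1 of its 2 spots was saturated in Cy5 on every array, and both spots in Cy3 on both arrays of slide 3, so its ratios may be compressed and no fold is given for it.

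The spread between arrays was larger than that between spots. For the 16 members with 2 spots on the array, the spots of 1 array differed by 0.03 at the median and by 0.17 at most, over 90 pairs. The 2 arrays of an allele differed by 0.16 at the median and by 0.77 at most over the 29 members. In tra1-P3408A no member's arrays were more than 0.30 apart. In tra1_SRR3413 SWC4 (0.76) and EAF3 (0.59), and in tra1-S3463A EAF3 (0.77), SWC4 (0.68), TAF10 (0.58) and EAF5 (-0.56), had array 2 more than 0.5 away from array 1, given as array 2 minus array 1. Array 2 of these 2 alleles shared both its slide and its dye orientation, which cannot be told apart here within these alleles.

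**Figure D3:**
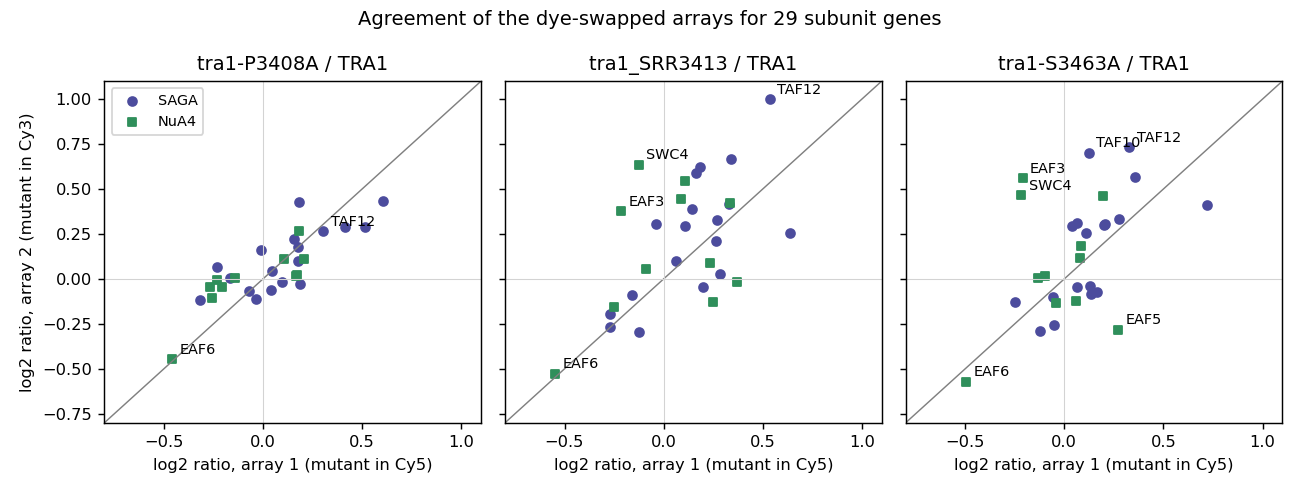
Each point is 1 of 29 subunit genes; the x axis is log2 (mutant / TRA1 strain) on array 1 (mutant in Cy5), the y axis the same on array 2 (mutant in Cy3), circles are SAGA and squares NuA4, and the diagonal marks equal values. EAF6 lies on or near the diagonal in all 3 panels, while genes more than 0.5 from it (SWC4 and EAF3, with TAF10 and EAF5 in tra1-S3463A) appear only in the panels whose array 2 was on slide 3.

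The alleles were also set against each other. None of the 29 members passed in any of the 3 differences, and none had an unadjusted p of limma below 0.05 without a block. Over all genes 0 passed in each difference, and 105, 105 and 6 genes had an unadjusted p below 0.05 for tra1_SRR3413 minus tra1-P3408A, tra1_SRR3413 minus tra1-S3463A and tra1-P3408A minus tra1-S3463A. The largest differences among members were in the first of these. TAF12 was 0.48 higher in tra1_SRR3413 than in tra1-P3408A (95% interval -0.07 to 1.03), SGF73 0.45 higher (-0.04 to 0.94) and EAF7 0.45 higher (-0.03 to 0.93), each with an adjusted p of 0.998. With the array number as a block their unadjusted p was 0.0211, 0.0231 and 0.0117, and their adjusted p 0.409. For EAF6 the difference was -0.09 (-0.43 to 0.26). At the median the interval of such a difference reached 0.42 to either side, so equal and moderately different levels could not be told apart.

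Genes of other chromatin complexes put these values in scale. In the fit without a block, 12.7%, 21.1% and 15.1% of all genes passed for tra1-P3408A, tra1_SRR3413 and tra1-S3463A. In that order, shares were 0%, 10% and 0% of TFIID-only genes, and 15.8%, 15.8% and 10.5% of SWR1 and INO80 genes. They were 15.4%, 30.8% and 23.1% for other acetyltransferase complexes and 0%, 9.52% and 4.76% for deacetylase complexes. For SWI/SNF and RSC genes they were 12.5%, 16.7% and 12.5%. These differences of shares were not tested. Of 10 tested genes of subunits found in TFIID and not in SAGA, TAF7 rose in tra1_SRR3413 (0.62 ± 0.15) and none passed in the other alleles, where 0 had an unadjusted p of limma below 0.05. Of 19 tested SWR1 and INO80 subunit genes not in NuA4, the INO80 subunit gene IES4 fell in all 3 alleles (-0.69, -0.78 and -0.63 for tra1-P3408A, tra1_SRR3413 and tra1-S3463A) and IES1 in tra1-P3408A (-0.47). IES6 rose in tra1-P3408A (0.69) and tra1-S3463A (0.49), and the SWR1 subunit genes SWC3 (0.50) and VPS72 (0.39) rose in tra1_SRR3413. EAF6, by comparison, fell by 0.45 to 0.54.

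Of 13 genes of other acetyltransferase complexes and their chaperones, SAS2, the catalytic subunit gene of the SAS complex, rose in all 3 alleles (0.52, 0.59 and 0.63). Its adjusted p of limma in tra1-P3408A was 0.0496. VPS75, which encodes a chaperone of the acetyltransferase Rtt109, rose in tra1_SRR3413 (0.57) and tra1-S3463A (0.51), and NTO1, the gene of a NuA3 subunit, rose in tra1-S3463A (0.55). HAT2 fell in tra1-P3408A (-0.59) and tra1_SRR3413 (-0.61), and AHC2, of the smaller Gcn5-containing ADA complex, fell in tra1_SRR3413 (-0.55). Of 21 tested genes of deacetylase complexes, SET3 rose (0.73) and RXT3 fell (-0.42) in tra1_SRR3413, and SDS3 fell in tra1-S3463A (-0.47). None of the 21 passed in tra1-P3408A, where 3 had an unadjusted p of limma below 0.05.

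The largest shift in these complexes was that of SWI1, which encodes a subunit of the SWI/SNF remodeller. SWI1 stood at 0.96 and 1.23 on arrays 1 and 2 of tra1-P3408A, 1.22 and 1.22 in tra1_SRR3413, and 1.16 and 0.96 in tra1-S3463A, and rose in all 3 alleles (adjusted p of limma 0.00535, 0.00283 and 0.00580). On each array the SWI1 value lay above that of every SAGA or NuA4 member measured there. Of the 24 tested SWI/SNF and RSC genes, NPL6 (0.51, 0.65 and 0.56) and RTT102 (0.51 in each allele) also rose in all 3 alleles and RSC30 fell in tra1_SRR3413 (-0.70). Several calls in the other complexes lay close to the threshold, such as VPS72 and SWC3 in tra1_SRR3413 and IES1 in tra1-P3408A (adjusted p of limma 0.0497, 0.0486 and 0.0482). Unlike the called members, the genes of other complexes were not followed singly with arrays left out or with other signals and normalizations. The 3 alleles share the TRA1 strain as their counterpart, so a gene called in several of them is not independent evidence from each.

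**Figure D4:**
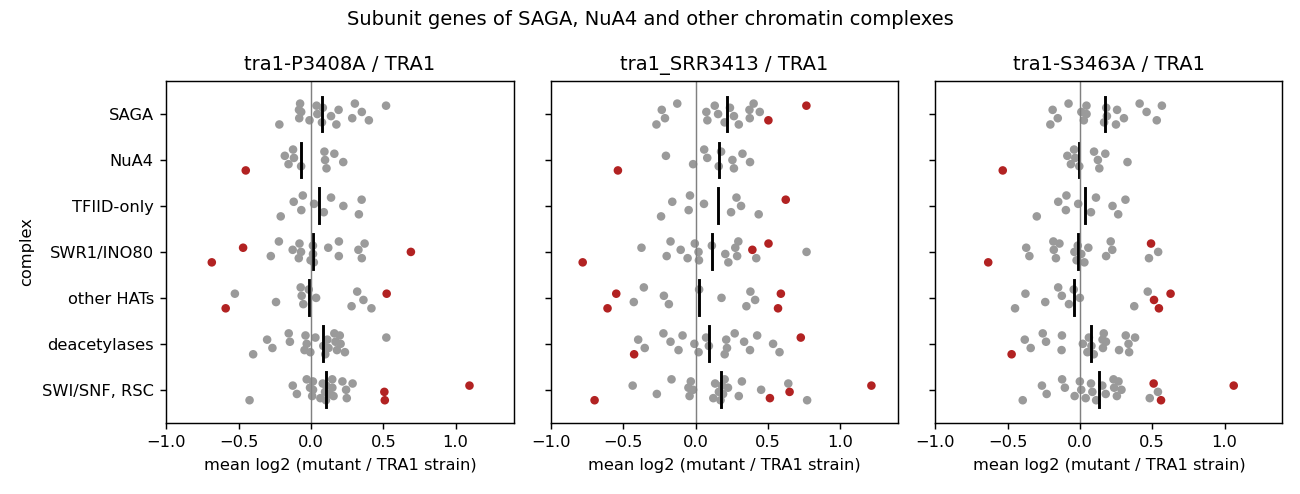
Each point is the mean log2 (mutant / TRA1 strain) of 1 gene over 2 arrays (x axis), in rows by complex, with 1 panel per allele; red points have an adjusted p of limma below 0.05, and black bars are the median of the row. SAGA and NuA4 medians lie between -0.07 and 0.22, and the farthest point to the right in each panel is SWI1.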

How the data were processed

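Agilent's Feature Extraction software, version 7.5.1, gave the deposited intensity of each spot, per the file headers. Mean and local background intensity are uncorrected there, and processed intensity is background-subtracted and dye-normalized by lowess. The deposited log10 ratio and the spot flags, of other kinds (0 or 1), come from the same software. The deposited series table equals the log10 ratio of dye-normalized signals turned to mutant over TRA1 strain. RNA was amplified linearly before labelling, per the labels' protocols.

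Mean and background signals were corrected in limma 3.58.1 (R 4.3.3) by normexp (offset 50), then loess-normalized within arrays. Control and outlier spots were left out and the spots of a gene averaged. Genes well above background in 1 channel on at least 2 arrays and measured on all 6 were tested with lmFit and eBayes, two-sided, in 1 fit without a block. The fit was also run on simulated data, with arrays that varied independently and changes larger than any member's mean. The arrays here deviated together, so that run does not show how the fit performs on these data. The number of arrays limits the precision. Deviations of same-numbered arrays from their allele means correlated at 0.512, 0.467 and 0.930 between alleles, and the labels make the number the dye orientation, so the number pairs the arrays. EAF1, SWC4, SGF11 and EAF7 were matched by systematic name through the R64 table of RefSeq. All 29 tested members are described, in detail where the fit without or with the array number as a block called them. Genes of other complexes are named where called, up to 4 per list and allele by unadjusted p. The members and lists were chosen with earlier results of these data known. Alternatives were a block for the array number or for the slide, other signals, normalizations and filters, only the arrays compared, the conflicting label, and leaving out each array.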

Additional observations from a re-analysis of the deposited data

How the results depend on the processing

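The number of members called depended on the fit, as did the share of all genes called. With the replicate block (array number) tra1-P3408A had 4 members, tra1_SRR3413 had 11 and tra1-S3463A had 8 (36.2%, 49.2% and 43.1% of all genes), against 1, 3 and 1 without a block (12.7%, 21.1% and 15.1%). A block for the slide gave 7, 12 and 8 (43.8%, 51.1% and 48.7%). Median centring, the processed signals and the series table each gave 0 in tra1-P3408A, where 8.65%, 12.2% and 12.2% of all genes passed. The processed signals and the series table gave 5 each in tra1_SRR3413 (20.5% and 20.6%). With saturated spots left out, tra1-S3463A had 2, EAF6 and HFI1 (15.8%). Counting the array with the conflicting label with tra1_SRR3413 left tra1-S3463A with 1 array, assumed to vary like the others, and 0 members (5.33%). In fits of an allele's own arrays the counts were 3, 1 and 0 (25.7%, 18.5% and 14.9%). Without 1 array of the 6, tra1-P3408A had 0 throughout (0.0163% to 13.1% of all genes). Both tra1_SRR3413 (5.41% to 19.8%) and tra1-S3463A (2.26% to 15.7%) had 0 to 2, and an allele left with 1 array was assumed to vary like the others. Where so few genes passed, a count of 0 members says little about the members. The differences between alleles had 0 called members under all 18 settings. The cause of these changes was not tested. All member readings were well above background.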
